A study of Mus musculus with 8 samples.

Results

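The integrated stress response was described through 9 genes, chosen by symbol: Atf4, Atf5, Ddit3, Ddit4, Trib3, Chac1, Asns, Sesn2 and Ppp1r15a. They were chosen with earlier results of these data known. All 9 were among the 24940 genes of the expression table, and all 9 were among the 11040 genes tested, those with at least 1 RPKM (reads per exon length and library depth) in at least 2 libraries. RNA had been sequenced from bone marrow-derived macrophages (BMMs) of C57BL/6 mice aged 6 to 8 weeks, which were grown in M-CSF, the growth factor of this lineage, at 5 ng/ml for 16 h and then at 30 ng/ml for 3 days. The cells carried a short hairpin labelled NCsh or TMBIM6sh and were given no RANKL, or RANKL, the cytokine that drives osteoclast formation, at 100 ng/ml for 24 h. This gave 4 groups of 2 libraries each, named here NCsh without RANKL, NCsh with RANKL, TMBIM6sh without RANKL and TMBIM6sh with RANKL, and all 8 libraries share the strain and M-CSF. Every sample carries the same treatment text, so which libraries had no RANKL was taken from the sample titles alone, and each RANKL comparison rests on them. The labels name 1 hairpin on each side, do not spell out NCsh, and give neither how the hairpins were delivered nor whether duplicates are separate animals or cultures, so p-values measure only the spread between libraries, which may be technical. An effect of losing Tmbim6 and any other effect of that hairpin cannot be told apart.

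The integrated stress response starts when a kinase senses endoplasmic reticulum stress, lack of amino acids, lack of haem or viral RNA and phosphorylates the translation factor eIF2. Most translation then falls, while a few messenger RNAs with upstream reading frames, that of the transcription factor ATF4 among them, are translated better. ATF4 is therefore set largely at the level of protein, and its RNA level need not follow its activity. ATF4 switches on genes for amino acid supply, the transcription factor CHOP (gene Ddit3) and a phosphatase subunit (gene Ppp1r15a) that returns eIF2 to its unphosphorylated state. TMBIM6, the target of the hairpin, is a membrane protein of the endoplasmic reticulum known for its part in calcium leak and stress signalling there.

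The promoters of 4 members are shown because they hold a word to which the factors of this response are known to bind. Each runs from 250 bases before to 50 bases after the RefSeq start site in GRCm38.p6, 5′ to 3′ on the strand of the gene. Capitals mark TGATGNAA, the composite site of ATF4 and C/EBP factors, on either strand in Asns, Trib3 and Chac1, and TGACGTCA, the cyclic AMP response element, which reads the same on both strands, in Ppp1r15a.
Asns promoter, chr6:7693160-7693459, minus strand: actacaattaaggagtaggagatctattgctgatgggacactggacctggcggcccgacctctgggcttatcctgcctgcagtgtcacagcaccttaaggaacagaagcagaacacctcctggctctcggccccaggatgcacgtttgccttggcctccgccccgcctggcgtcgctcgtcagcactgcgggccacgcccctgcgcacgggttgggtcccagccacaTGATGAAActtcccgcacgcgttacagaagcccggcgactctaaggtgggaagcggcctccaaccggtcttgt
Trib3 promoter, chr2:152344011-152344310, minus strand: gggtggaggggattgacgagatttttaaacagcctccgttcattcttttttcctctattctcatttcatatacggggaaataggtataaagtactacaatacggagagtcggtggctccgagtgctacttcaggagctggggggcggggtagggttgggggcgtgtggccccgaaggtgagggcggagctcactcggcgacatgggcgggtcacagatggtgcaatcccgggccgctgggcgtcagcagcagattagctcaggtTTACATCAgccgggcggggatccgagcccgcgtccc
Chac1 promoter, chr2:119350992-119351291, plus strand: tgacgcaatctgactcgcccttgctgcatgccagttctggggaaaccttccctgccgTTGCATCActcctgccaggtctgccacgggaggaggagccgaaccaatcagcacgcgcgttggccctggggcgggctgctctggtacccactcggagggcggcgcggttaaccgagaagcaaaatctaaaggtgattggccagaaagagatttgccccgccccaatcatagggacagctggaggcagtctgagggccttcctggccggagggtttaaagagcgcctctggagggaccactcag
Ppp1r15a promoter, chr7:45526219-45526518, minus strand: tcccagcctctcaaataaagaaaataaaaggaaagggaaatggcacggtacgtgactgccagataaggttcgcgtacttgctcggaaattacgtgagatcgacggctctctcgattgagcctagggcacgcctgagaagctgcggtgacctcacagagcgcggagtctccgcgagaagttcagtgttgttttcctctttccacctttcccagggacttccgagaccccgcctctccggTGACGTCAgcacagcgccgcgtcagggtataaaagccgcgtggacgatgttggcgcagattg
TGATGNAA lay at positions -23 to -16 in Asns, 15 to 22 in Trib3 and -193 to -186 in Chac1, counted from the start site as 1 with no position 0. In Trib3 and Chac1 the word was on the strand opposite to the gene, so the printed capitals are its reverse complement, TTNCATCA. It occurred in 3.97% of the 32851 promoter windows of all genes and in 2.25% of the 10886 windows of tested genes. TGACGTCA lay at positions -12 to -5 of Ppp1r15a and occurred in 1.79% of all windows and 3.17% of those of tested genes. The endoplasmic reticulum stress element, CCAAT and CCACG with 9 bases between them, searched on both strands, was in 0 windows of the 9 members and in 0.119% of all windows. RefSeq windows were found for 9 of 9 members, with 10 windows in all, since Atf5 has more than 1 start site. The RefSeq start of Asns lies 27 bases from that of the expression table. A match describes these letters only, and the absence of a word says nothing of a factor.

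Sequencing depth was 25475000 to 28595000 tags per library, with 83.5% to 86.4% of them over exons, and each member had between 136 and 6755 tags in a library. Tmbim6 checked the labels: its level in the TMBIM6sh libraries was 3.44% of that in the NCsh libraries without RANKL and 3.25% with RANKL. All 10 macrophage markers passed the filter, with a summed level of 9281 to 10900 RPKM in the 4 NCsh libraries and 7591 to 8682 RPKM in the 4 TMBIM6sh libraries. Lyz2, which gave most of that sum, stood at 6799 to 8071 RPKM in NCsh and 5280 to 6172 RPKM in TMBIM6sh. Mrc1 was also lower in every TMBIM6sh library than in every NCsh library. The other macrophage markers, Csf1r, Adgre1, Cd68, Itgam, Fcgr1, Mertk, Cd14 and Aif1, overlapped between the hairpins. Of 10 osteoclast markers 5 passed, and Ctsk, Calcr and Oscar, which mark differentiated osteoclasts, stayed below 0.1 RPKM in all 8 libraries. The summed osteoclast level was 91.3 to 115 RPKM in 3 groups and 140 to 152 RPKM in TMBIM6sh with RANKL, and Mmp9 accounted for 69.4 and 73.4 RPKM of it there. Atp6v0d2 went the other way, at 14.9 and 14.8 RPKM in NCsh without RANKL and 6.94 and 6.47 RPKM in TMBIM6sh with RANKL. Over all libraries Acp5 ran from 50.9 to 64.7 RPKM and Nfatc1 from 5.58 to 6.92 RPKM. The higher sum is therefore that of Mmp9 and not of the list. The summed level of 8 neutrophil markers was 22.6 to 28.2 RPKM in the 4 NCsh libraries and 11.6 to 15.5 RPKM in the 4 TMBIM6sh libraries, nearly all from S100a8, the one neutrophil marker that passed, while Ly6g was at 0 in all 8 libraries. Markers of dendritic cells reached at most 10.8 RPKM, those of stromal cells 3.56 RPKM, those of lymphocytes 5.45 RPKM and those of erythroid, mast and basophil cells 0.103 RPKM. The macrophage sum, mostly Lyz2, and the neutrophil sum, mostly S100a8, both move with the hairpin, and their part in the results below was not tested. In bulk RNA, fewer cells of a type and less RNA per cell cannot be told apart.

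The 9 genes spanned a wide range of levels in these macrophages. By mean RPKM over the 8 libraries, a scale per exon length, the order was Atf4 at 134, Atf5 at 120, Asns at 41.6, Ddit3 at 35.7, Trib3 at 23.4, Sesn2 at 20.4, Ppp1r15a at 18.0, Chac1 at 5.56 and Ddit4 at 4.20. Atf4 stood above 96.4% of the tested genes and Ddit4 above 27.2%. Over all libraries, neighbours in this order overlapped except at 2 steps, between Atf5, at 106 RPKM or more, and Asns, at 51.2 RPKM or less, and between Ppp1r15a, at 14.0 RPKM or more, and Chac1, at 6.07 RPKM or less.

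**Figure D1:**
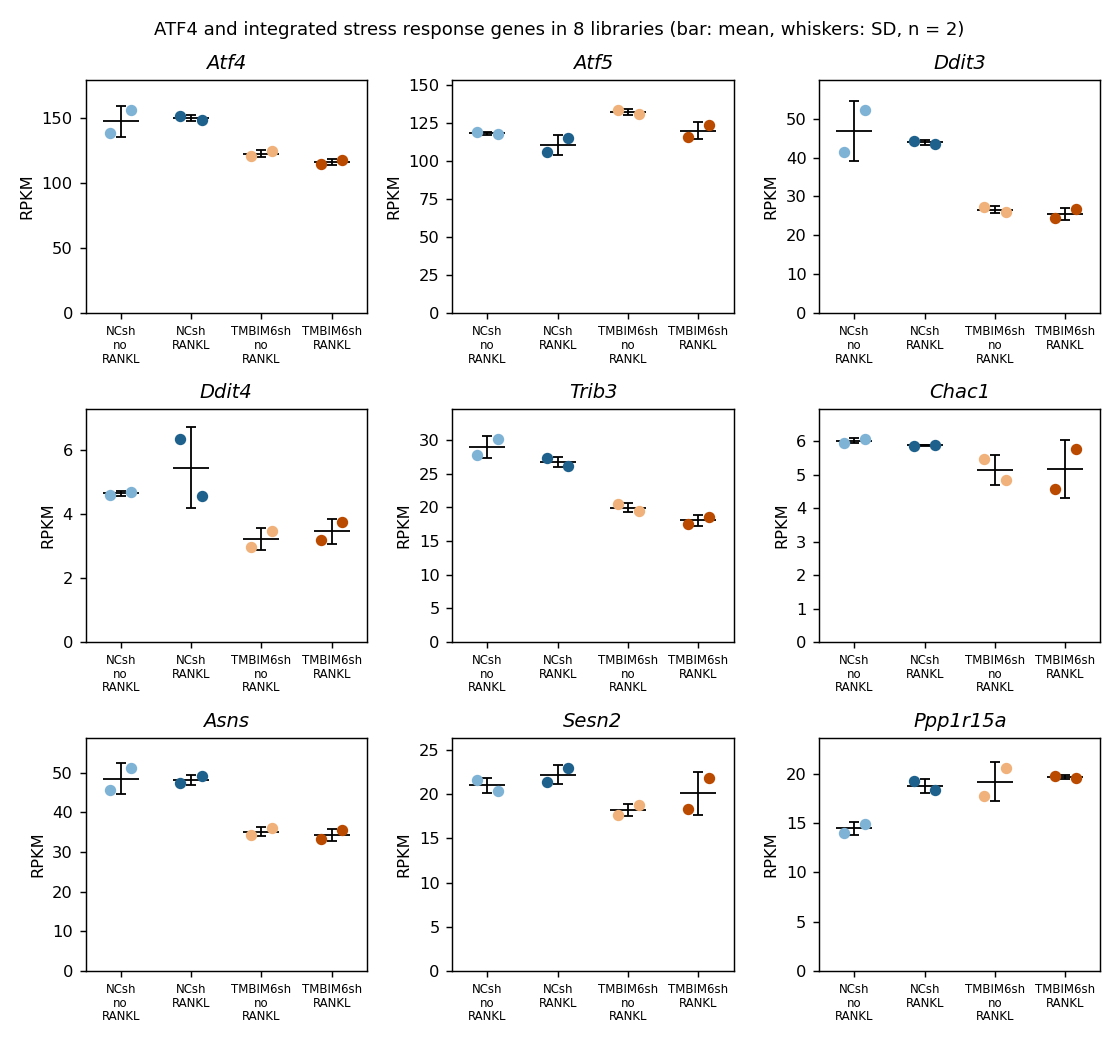
RPKM of each of the 9 genes (vertical axis, from 0) in the 8 libraries, by hairpin and RANKL (horizontal axis); points are libraries, the short bar is the group mean and whiskers are the SD of 2 libraries. All 4 TMBIM6sh points lie below all 4 NCsh points for Atf4, Ddit3, Ddit4, Trib3, Chac1 and Asns, and Ppp1r15a is lowest in NCsh without RANKL, at 14.0 and 14.9 RPKM.

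With the TMBIM6 hairpin, the transcripts of the central factor Atf4, of its partner in stress signalling Ddit3, and of the downstream genes Trib3, Asns and Ddit4 were lower, both without and with RANKL. Ddit3 was at 57.0% of its NCsh level without RANKL and at 58.1% with it, Trib3 at 68.9% and 67.5%, Asns at 72.6% and 71.3%, and Atf4 at 83.2% and 77.5%. Ppp1r15a, which encodes the inducible partner of the eIF2 phosphatase, was higher in TMBIM6sh without RANKL. Atf5, Chac1 and Sesn2 were not called in either comparison. Without RANKL, 5 of 9 members were called lower and 1 higher at an adjusted p under 0.05 (limma, Benjamini-Hochberg over all tested genes), where 13.8% of tested genes were called lower and 10.4% higher, 24.2% together. These 6 calls became 3 without TMBIM6sh no RANKL replicate 2, and those of Ddit4 and Atf4 were lost in 8 and 4 of 14 alternatives. With RANKL, 5 of 9 were called lower and 0 higher, where 19.7% of tested genes were called lower and 8.93% higher, 28.6% together. After scaling to the median ratio the calls over all genes with RANKL shifted from 986 higher and 2171 lower to 1580 higher and 1680 lower, and 6 members were called, the 5 lower ones and Atf5. The same 5 members were called lower in both comparisons, as were 11.0% of tested genes, and 0 members were called higher in both, against 6.56%. These comparisons share no library, but they share the hairpins and the fit's estimate of spread for each gene, so they are not independent. The median log2 difference of the members was -0.26 without RANKL, against -0.02 over all tested genes, and -0.365 with RANKL, against -0.07. All 4 TMBIM6sh libraries lay below all 4 NCsh libraries for 6 of 9 members, as they did for 16.7% of tested genes. Since the members were chosen with earlier results of these data known, their counts and medians beside those of all tested genes are a description and no test. With 2 libraries against 2, an exact two-sided permutation test cannot give a p below 0.333. Duplicates that do not overlap between hairpins within a RANKL setting are therefore a description only. How many tested genes show that was not counted.

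**Figure D2:**
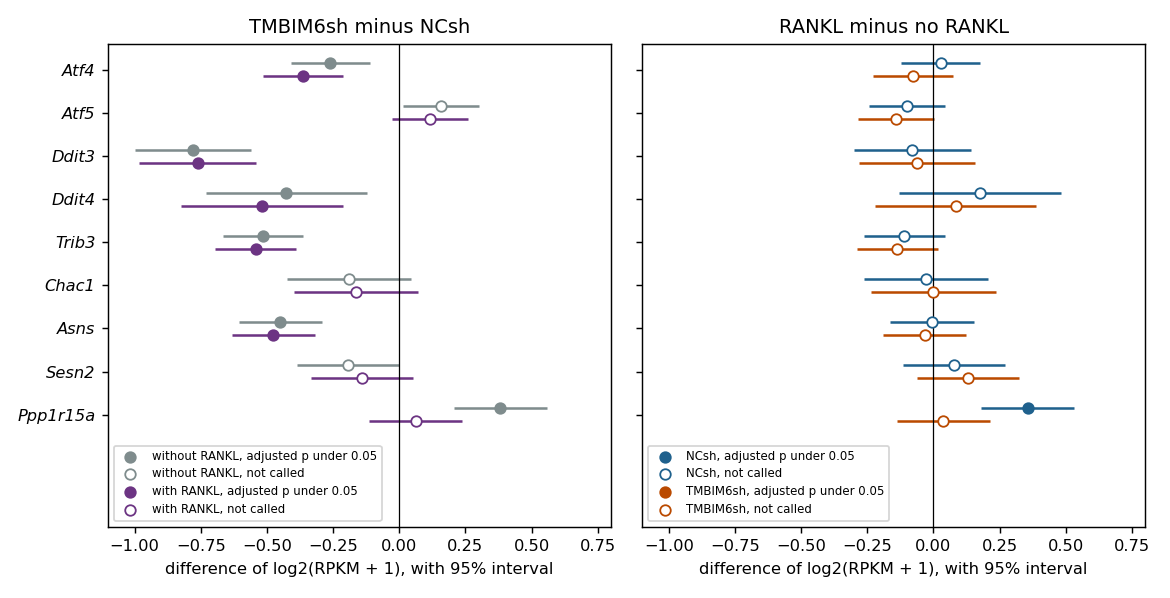
Differences of log2(RPKM + 1) (horizontal axis) for the 9 genes, TMBIM6sh minus NCsh at left and RANKL minus no RANKL at right, with 95% intervals from the limma fit; filled points have an adjusted p under 0.05. Ddit3 shows the lowest values of the 9 in both hairpin comparisons, -0.78 and -0.76, and the filled point at right is Ppp1r15a in NCsh libraries, at 0.36.

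Atf4 (chr15:80255184-80257545, plus strand, mm10) encodes the transcription factor on which the arms of the response converge. Its exons were covered by 4230 to 6400 tags per library. Atf4 stood at 138 and 156 RPKM in the NCsh libraries without RANKL, 151 and 148 with RANKL, 121 and 124 in TMBIM6sh without RANKL, and 114 and 118 in TMBIM6sh with RANKL. The TMBIM6sh duplicates lay below the NCsh duplicates in both settings, with no overlap. On the scale of log2(RPKM + 1) TMBIM6sh was lower, with a difference of -0.26, in the cells not given RANKL (SE 0.0671, adjusted p = 0.0201) and of -0.365 in those given it (SE 0.0671, adjusted p = 0.00339). The call without RANKL was lost when the 4 libraries were fitted alone (adjusted p = 0.0575) or without NCsh replicate 2 (-0.18, 0.0665), TMBIM6sh replicate 1 (0.137) or TMBIM6sh replicate 2 (0.0877) of the groups without RANKL.

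Ddit3 (chr10:127290793-127296288, plus strand) encodes CHOP, a transcription factor induced by ATF4 and known for its role in cell death under lasting stress. Its level was 41.3 and 52.1 RPKM in NCsh without RANKL, 44.3 and 43.5 in NCsh with RANKL, 27.3 and 26.0 in TMBIM6sh without RANKL, and 24.3 and 26.7 in TMBIM6sh with RANKL, from 512 to 1217 tags. The 4 TMBIM6sh libraries formed a narrow band far below the 4 NCsh libraries. Its log2 difference between hairpins came to -0.78 in the cells not given RANKL (SE 0.0985, adjusted p = 0.000504) and to -0.76 in those given it (SE 0.0985, adjusted p = 0.000497). Exons of Ddit3 share 68 of 1713 bases with Mars, the methionyl-tRNA synthetase gene on the opposite strand, and tags were counted on both strands. Mars ran from 17.0 to 24.4 RPKM and its group means were higher in TMBIM6sh, 18.9 against 17.2 RPKM without RANKL and 23.4 against 20.3 RPKM with it.

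Atf5 (chr7:44812256-44816658, minus strand) encodes a relative of ATF4 whose translation is also controlled through upstream reading frames. Unlike Atf4, it had higher group means in TMBIM6sh. Its libraries stood at 119 and 117 RPKM in NCsh without RANKL, 106 and 115 in NCsh with RANKL, 133 and 131 in TMBIM6sh without RANKL, and 116 and 124 in TMBIM6sh with RANKL. Duplicates did not overlap between hairpins within a RANKL setting, while the 4 TMBIM6sh and 4 NCsh libraries did. The log2 difference was 0.16 without RANKL (95% interval 0.02 to 0.30, adjusted p = 0.104) and 0.12 with RANKL (-0.03 to 0.26, adjusted p = 0.205). Under median-ratio scaling Atf5 was called higher in both, at 0.18 (adjusted p = 0.0497) and 0.19 (adjusted p = 0.0361). Atf5 shares 82 of 1993 exon bases with Nup62 and Il4i1 on the other strand, and Nup62 stood at 26.5 to 31.8 RPKM.

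Among downstream genes, Trib3 (chr2:152337425-152344060, minus strand) encodes a pseudokinase that is induced by ATF4 and CHOP and restrains ATF4. It stood at 27.8 and 30.1 RPKM in NCsh without RANKL, 27.3 and 26.2 in NCsh with RANKL, 20.4 and 19.5 in TMBIM6sh without RANKL, and 17.5 and 18.6 in TMBIM6sh with RANKL. The TMBIM6sh values lay below the NCsh values throughout. Between hairpins the log2 values differed by -0.52 in cells without RANKL (SE 0.0680, adjusted p = 0.000633) and by -0.54 with it (SE 0.0680, adjusted p = 0.000434).

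Asns (chr6:7675171-7693182, minus strand), asparagine synthetase, is a classical ATF4 target of amino acid starvation, and its promoter window above holds the composite site close to the start. Its libraries stood at 45.8 and 51.2 RPKM in NCsh without RANKL, 47.3 and 49.2 in NCsh with RANKL, 34.4 and 36.0 in TMBIM6sh without RANKL, and 33.4 and 35.4 in TMBIM6sh with RANKL. Every TMBIM6sh library was below every NCsh library. Between hairpins the log2 values differed by -0.45 in cells without RANKL (SE 0.0700, adjusted p = 0.00159) and by -0.48 with it (SE 0.0700, adjusted p = 0.000991).

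Ddit4 (chr10:59949675-59951770, minus strand) encodes REDD1, an inhibitor of the growth kinase complex mTORC1 that stress, hypoxia and glucocorticoids induce. It had the fewest tags of the members, 136 to 272 per library. It stood at 4.61 and 4.72 RPKM in NCsh without RANKL, 6.36 and 4.56 in NCsh with RANKL, 2.97 and 3.47 in TMBIM6sh without RANKL, and 3.19 and 3.75 in TMBIM6sh with RANKL. The NCsh duplicates with RANKL were far apart, but both lay above the TMBIM6sh duplicates. Its log2 difference between hairpins came to -0.43 in cells without RANKL (SE 0.136, adjusted p = 0.0472) and to -0.52 with it (SE 0.136, adjusted p = 0.0187), on a scale that understates changes of low genes. The call without RANKL was lost in 8 of 14 alternatives, among them no filter on low values (adjusted p = 0.154) and leaving out either library of 3 groups, those without RANKL and TMBIM6sh with RANKL (0.0608 to 0.231). The call with RANKL was lost with no filter (0.0825), without NCsh RANKL replicate 1 (-0.32, 0.135) and without TMBIM6sh RANKL replicate 1 (0.120).

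Chac1 (chr2:119351242-119354327, plus strand) encodes an enzyme that degrades glutathione and is a target of ATF4. It stood at 5.96 and 6.07 RPKM in NCsh without RANKL, 5.87 and 5.90 in NCsh with RANKL, 5.47 and 4.84 in TMBIM6sh without RANKL, and 4.57 and 5.78 in TMBIM6sh with RANKL, from 184 to 271 tags. The hairpin groups did not overlap, but the TMBIM6sh duplicates differed among themselves more than the NCsh duplicates did. The log2 difference was -0.19 without RANKL (95% interval -0.43 to 0.04, adjusted p = 0.224) and -0.16 with it (-0.40 to 0.07, adjusted p = 0.276), so a difference as large as the estimate for Trib3 lay outside the interval in both settings. The pattern TGATGNAA reads TGATGCAA in Chac1, TGATGTAA in Trib3 and TGATGAAA in Asns, so each has its own letters. The match in Chac1 lies further from the start site than those in Trib3 and Asns. Whether letters or position bear on the level of Chac1 was not tested.

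Sesn2 (chr4:132492807-132510456, minus strand) encodes sestrin 2, a leucine sensor upstream of mTORC1 that ATF4 and p53 are known to induce. Its level was 21.6 and 20.4 RPKM in NCsh without RANKL, 21.4 and 23.0 in NCsh with RANKL, 17.7 and 18.7 in TMBIM6sh without RANKL, and 18.3 and 21.8 in TMBIM6sh with RANKL. The hairpin groups overlapped with RANKL and not without it. The log2 difference was -0.195 without RANKL (95% interval -0.387 to -0.002, adjusted p = 0.134) and -0.14 with it (-0.33 to 0.05, adjusted p = 0.248).

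Ppp1r15a (chr7:45522917-45526268, minus strand) encodes GADD34, the stress-induced subunit that brings protein phosphatase 1 to eIF2. It was lowest in 1 group, at 14.0 and 14.9 RPKM in NCsh without RANKL, against 19.3 and 18.3 in NCsh with RANKL, 17.8 and 20.6 in TMBIM6sh without RANKL, and 19.8 and 19.5 in TMBIM6sh with RANKL. The TMBIM6sh duplicates without RANKL lay above the NCsh duplicates, with a log2 difference of 0.38 (SE 0.0785, adjusted p = 0.00702), a call lost without TMBIM6sh replicate 2 of that group (0.28, adjusted p = 0.0711). With RANKL the difference was 0.06 (95% interval -0.12 to 0.24, adjusted p = 0.596). Its constitutive paralogue Ppp1r15b stood at 30.6 RPKM ± 0.452 (SD, n = 2) in TMBIM6sh and 22.8 ± 2.02 in NCsh without RANKL (log2 difference 0.41, adjusted p = 0.00309), and at 30.0 ± 1.02 and 23.9 ± 1.04 with RANKL (0.32, adjusted p = 0.0101). Ppp1r15a shares 12 of 2937 exon bases with Tulp2, which was at 0.223 RPKM or less.

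With RANKL, Ppp1r15a rose in NCsh libraries, and no other call was made among these genes. In NCsh libraries 1 of 9 members was called, Ppp1r15a, higher with RANKL, where 11.0% of tested genes were called higher and 3.98% lower, 15.0% together. Its log2 difference was 0.36 (SE 0.0785, adjusted p = 0.0151), and both libraries with RANKL lay above both without. The call was lost without NCsh no RANKL replicate 1 (adjusted p = 0.0551) and without NCsh RANKL replicate 1 (adjusted p = 0.111), leaving 0 members called. This comparison and that of hairpins without RANKL share the NCsh libraries without RANKL, the group in which Ppp1r15a was low. Median-ratio scaling shifted the calls over all genes from 1214 higher and 439 lower to 800 higher and 836 lower, and Ppp1r15a was still called. In TMBIM6sh libraries 0 of 9 members were called by limma, 0 had an unadjusted p under 0.05 and 0 were called by limma's voom on recovered tags, where 8.53% of tested genes were called higher and 6.89% lower, 15.4% together. The interval with the widest reach upward there was that of Ddit4, from -0.22 to 0.39, and downward that of Trib3, from -0.29 to 0.02. None of the 9 members had all 4 libraries with RANKL above, or all 4 below, the 4 without, against 11.4% and 5.3% of tested genes.

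The hairpin's effect was then compared between the RANKL settings. The interaction was called for 0 of 9 members by limma and by voom, where 0.00906% of tested genes, 1 gene, were called. An unadjusted limma p under 0.05 was found for 1 of the members, Ppp1r15a, and for 857 of the 11040 tested genes. Its log2 difference between hairpins was lower with RANKL by an interaction of -0.32 (95% interval -0.57 to -0.07, adjusted p = 0.609). The interaction of Ddit3 was 0.02 (95% interval -0.29 to 0.33), that of Trib3 -0.03 (-0.24 to 0.19) and that of Asns -0.03 (-0.25 to 0.19), so larger differences between the settings were outside those intervals.

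Within a library, ratios between members show which transcripts differed unequally. Atf4 over Atf5 ran from 1.17 to 1.43 in the 4 NCsh libraries and from 0.907 to 0.988 in the 4 TMBIM6sh libraries, so Atf4 was the more abundant of the pair per length in every NCsh library and the less abundant in every TMBIM6sh library. Ddit3 over Atf4 ran from 0.293 to 0.335 in NCsh and from 0.209 to 0.226 in TMBIM6sh. Asns over Atf4 ran from 0.313 to 0.332 and from 0.285 to 0.301, and Trib3 over Atf4 from 0.177 to 0.201 and from 0.153 to 0.169. In those 3 ratios, too, the hairpins did not overlap, with Ddit3 furthest apart and narrow gaps for Asns and Trib3. Chac1 over Atf4 overlapped, at 0.0388 to 0.0430 in NCsh and 0.0390 to 0.0490 in TMBIM6sh. Also overlapping were Ddit4 over Atf4, at 0.0303 to 0.0420 and 0.0246 to 0.0318, and Sesn2 over Atf4, at 0.131 to 0.156 and 0.147 to 0.185. Ppp1r15a over its paralogue Ppp1r15b overlapped as well, at 0.579 to 0.792 and 0.586 to 0.677. The ratios were not tested, and how often other gene pairs separate the hairpins was not counted.

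**Figure D3:**
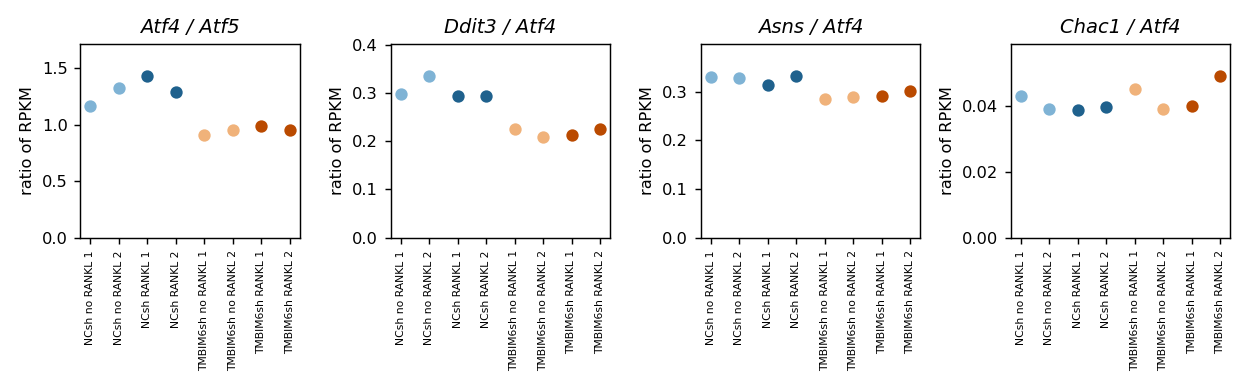
Ratio of RPKM between pairs of genes (vertical axis, from 0) in each of the 8 libraries (horizontal axis). Atf4 over Atf5, Ddit3 over Atf4 and Asns over Atf4 are lower in every TMBIM6sh library than in every NCsh library, while Chac1 over Atf4 overlaps between the hairpins.

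Across the 8 libraries Atf4 went most closely with Asns (Pearson r of log2(RPKM + 1) 0.981), Ddit3 (0.978) and Trib3 (0.961), and less closely with Ddit4 (0.856), Chac1 (0.728) and Sesn2 (0.600). It ran opposite to Atf5 (-0.598) and Ppp1r15a (-0.511). These 8 points fall into the 2 hairpins, so the values describe that split and carry no test. Outside the 9 genes, the patterns closest to Atf4 were those of Pla2g7 (0.992), Hltf (0.992) and Pla2g4a (0.991), 2 of which encode phospholipases. Those closest to Ddit3 were Crip1, Atp6v1g1 and Mt2 (0.993 to 0.995), to Trib3 Shc1, Hmg20b and Sema3f (0.993), and to Asns Mt2, Ado and Nipsnap3b (0.995). Those closest to Ppp1r15a were Gnl3l (0.981), Morc2a (0.967) and Rlf (0.962), to Atf5 B3gat3 (0.988), Gm5150 (0.981) and Map3k9 (0.980), and to Ddit4 Anapc16 (0.981), Ccdc189 (0.979) and Safb (0.978). For Sesn2 they were Sgf29 (0.989), Zfp759 (0.970) and Gm9949 (0.959), and for Chac1 Bet1l (0.939), Snord99 (0.936) and Gtf3a (0.932).

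Around the members, genes of the sensing step moved in mixed directions with the hairpin. Of 21 tested genes for eIF2 kinases, eIF2 and eIF2B subunits and eIF2 phosphatase partners, 3 were higher and 6 lower in TMBIM6sh without RANKL, and 2 higher and 4 lower with it. Over all tested genes 10.4% were higher and 13.8% lower without RANKL, and 8.93% higher and 19.7% lower with it. The counts with RANKL lay near those shares. The kinases that sense endoplasmic reticulum stress (Eif2ak3, PERK) and lack of haem (Eif2ak1, HRI) were not called in either comparison, with log2 differences of -0.12 and 0.17 without RANKL and -0.23 and 0.23 with it. Eif2ak2, PKR, the kinase of viral RNA, was lower at 10.9 against 12.9 RPKM without RANKL (-0.22, adjusted p = 0.0477) and 10.8 against 14.6 with it (-0.40, adjusted p = 0.00273). Eif2ak4, GCN2, the kinase of amino acid lack, was higher without RANKL (4.57 against 3.21 RPKM, 0.40, adjusted p = 0.0194) and not called with it (0.13, adjusted p = 0.382). Impact, an inhibitor of GCN2 activation, stood at 12.8 RPKM in TMBIM6sh and 25.8 in NCsh without RANKL (-0.96, adjusted p = 6.54e-05), and at 9.72 and 26.6 with it (-1.37, adjusted p = 1.18e-05). Catalytic subunits of phosphatase 1 went both ways: without RANKL Ppp1cb was higher (0.45) and Ppp1cc lower (-0.41).

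Among 11 leucine-zipper factors that can pair with ATF4, 4 were higher and 2 lower in TMBIM6sh without RANKL, and 5 higher and 3 lower with RANKL. The shares over all tested genes were 10.4% higher and 13.8% lower, then 8.93% higher and 19.7% lower. Cebpg, the C/EBP factor best known as an ATF4 partner at composite sites, was lower at 6.51 against 9.77 RPKM without RANKL (-0.52, adjusted p = 0.000640) and 7.08 against 10.1 with it (-0.45, adjusted p = 0.00119). Cebpd was higher (0.39 and 0.45), as was Maf (0.31 and 0.33). Atf3, itself an ATF4 target, did not pass between hairpins (-0.03 and -0.09) and fell with RANKL, from 128 to 99.5 RPKM in NCsh (-0.36, adjusted p = 0.00379) and from 125 to 93.6 in TMBIM6sh (-0.42, adjusted p = 0.00143).

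Known ATF4 targets for amino acid supply, the group to which Asns belongs, were called in both directions. Of 15 tested, 2 were higher and 2 lower in TMBIM6sh without RANKL, and 2 higher and 3 lower with it. Those counts lay close to the shares over all tested genes, 10.4% higher and 13.8% lower, then 8.93% higher and 19.7% lower. Psat1, of serine synthesis, was higher in TMBIM6sh at 18.3 against 9.14 RPKM without RANKL (0.93, adjusted p = 0.000126) and 20.2 against 10.3 with it (0.91, adjusted p = 0.000127). The arginine and lysine transporter Slc7a1 was higher as well (0.75 and 0.67). The cystine transporter Slc7a11 was lower at 20.8 against 28.1 RPKM without RANKL (-0.42) and 20.3 against 29.2 with it (-0.50), and Phgdh was lower without RANKL (-0.41). With RANKL, 5 of the 15 were higher in each hairpin, among them the transporter Slc1a5 (0.83 in NCsh, 0.64 in TMBIM6sh) and Shmt2 (0.69 and 0.60), where 11.0% and 8.53% of tested genes were higher. The transporter subunit Slc3a2 was lower with RANKL in TMBIM6sh libraries (162 against 191 RPKM, log2 difference -0.23, adjusted p = 0.0365). Of 15 aminoacyl-tRNA synthetase and tRNA export genes, 2 were higher and 0 lower in TMBIM6sh without RANKL and 2 higher and 2 lower with it, with Gars higher in both (0.50 and 0.38).

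Of 17 other targets of ATF4 and CHOP, 1 was higher and 6 lower without RANKL, and 1 higher and 9 lower with it. The lower ones included the translation repressor Eif4ebp1 (51.5 against 72.2 RPKM without RANKL, -0.47, and 53.7 against 69.6 with it, -0.37), the endoplasmic reticulum degradation factor Herpud1 (-0.47 and -0.58) and the oxidase Ero1l (-0.46 and -0.69). Vegfa, also a hypoxia target, was lower too (-0.46 and -0.76). Nupr1, a stress-induced chromatin protein, was called lower with RANKL (11.3 against 17.4 RPKM, -0.59, adjusted p = 0.0179) and not without it (-0.45, adjusted p = 0.0603). The one higher gene was the ubiquitin ligase Rnf19b (0.70 and 0.85). Over all tested genes 10.4% were higher and 13.8% lower without RANKL, and 8.93% higher and 19.7% lower with it.

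The parallel arms of the unfolded protein response, ATF6 and IRE1-XBP1, had 0 of 19 genes higher and 9 lower without RANKL, and 0 higher and 10 lower with it. The chaperone Hspa5 (BiP) was at 74.1 against 131 RPKM without RANKL (-0.82, adjusted p = 6.28e-05) and 85.0 against 130 with it (-0.61, adjusted p = 0.000277). Pdia6, a disulfide isomerase, was at 16.9 against 48.1 RPKM (-1.46) and 17.7 against 49.5 (-1.43), and Atf6 itself was lower (-0.76 and -0.80). These counts are read against the 13.8% and 19.7% of all tested genes called lower. The list did not fall as a whole: Pdia3, Hyou1, Creld2, Dnajb9, Dnajb11, Dnajc3, Sel1l, Syvn1 and Manf were called in neither setting.

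Ddit4 and Sesn2 act on mTORC1 and have inducers besides ATF4, so lists of those were set beside them. The counts between hairpins are read against all tested genes, 10.4% higher and 13.8% lower without RANKL, and 8.93% and 19.7% with it. Of 16 other mTORC1 regulators, 2 were higher and 3 lower without RANKL and 0 higher and 2 lower with it, with Depdc5, a brake on mTORC1, at 2.84 against 5.67 RPKM (-0.80) and 3.21 against 6.77 (-0.89). Of 12 hypoxia targets, 0 were higher and 5 lower without RANKL and 0 higher and 6 lower with it. Vegfa and Ero1l counted in both this list and that of ATF4 and CHOP targets, as did Ndrg1. Of 6 glucocorticoid targets, 0 were higher and 3 lower, then 0 higher and 4 lower, led by Tsc22d3, which stood at 8.75 against 21.9 RPKM (-1.23) and 8.28 against 18.2 (-1.05). Of 13 p53 targets, 4 were higher and 1 lower, then 3 higher and 3 lower, with Ccng1 higher (0.47 and 0.45) and Trp53inp1 lower (-0.96 and -1.22). Of 5 tested paralogues of the members, 2 were higher and 0 lower in both settings, Ppp1r15b and Trib1 (0.29 and 0.32), while Sesn1, another sestrin, was not called between hairpins (0.05 and 0.07). Sesn1 fell with RANKL, from 20.2 to 14.3 RPKM in NCsh (-0.47, adjusted p = 0.00689) and from 20.9 to 15.0 in TMBIM6sh (-0.45, adjusted p = 0.00774).

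**Figure D4:**
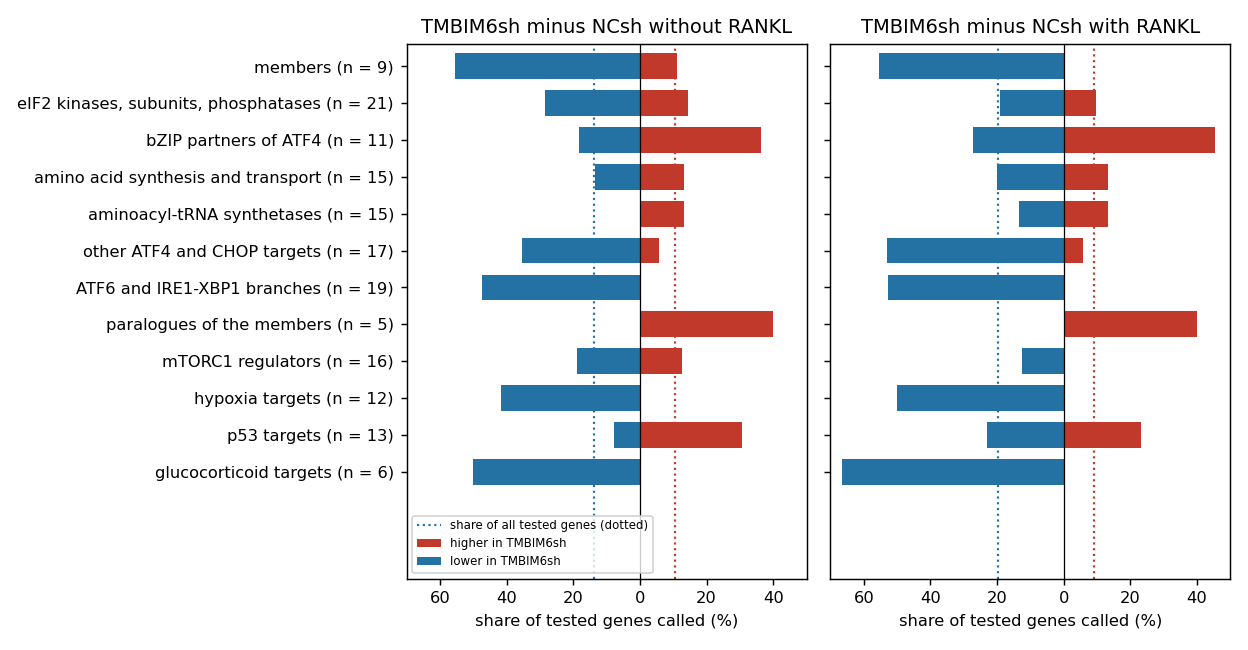
Share of tested genes in each list (horizontal axis, %) called higher (right of 0) or lower (left of 0) in TMBIM6sh libraries, without RANKL at left and with RANKL at right; dotted lines are the shares over all tested genes, 10.4% higher and 13.8% lower, then 8.93% and 19.7%. The ATF6 and IRE1-XBP1 list holds 0 higher and 9 then 10 lower genes of 19, and the amino acid list lies close to the dotted lines without RANKL, with 2 higher and 2 lower of 15.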

How the data were processed

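Transcript levels of bone marrow-derived macrophages were read from 1 table of 8 libraries. The authors deposited RPKM values made with HOMER's analyzeRepeats on mm10, per the file headers: tags over exons on both strands, isoforms condensed to 1 entry per gene, divided by exon length (a further deposited value, in bases) and library tags. The column heads say FPKM. HISAT2 and DESeq2 are named in the submitters' processing notes with no version given. The values step by whole tags, and the depth of each library was chosen so that low values came out whole. The 2295 to 2396 values per library used for that choice all came out whole, to within 0.1 tag. They are no separate check of the depth.

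Values were used as log2(RPKM + 1), unscaled. Genes with at least 1 RPKM in at least 2 libraries were tested, 11040 of 24940. All 8 libraries entered a limma fit (version 3.58.1, R 4.3.3) with a mean for each group, 4 residual and 5.54 prior degrees of freedom and a trend, and p-values were adjusted with Benjamini-Hochberg over all tested genes. The fit was tested on simulated data, in which libraries were independent and far fewer genes changed than were called between hairpins here. That test does not show how reliable the calls are. Same-numbered libraries did not deviate together, so numbers were not used as pairs. Genes named outside the 9 are Tmbim6, up to 4 called genes per list with the smallest p, the 3 genes of highest r with each member, and genes chosen after their values were seen, Eif2ak1, Eif2ak3, Eif2ak4, Nupr1 and Eif4ebp1 among them. The members and lists were chosen with earlier results of these data known. The alternatives were another pseudocount, no filter, median-ratio scaling, the replicate block, the 4 libraries alone, voom on recovered tags, and each library left out.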

Additional observations from a re-analysis of the deposited data

How the results depend on the processing

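Of 621 values of the members under alternatives, 567 kept direction and side of the threshold, 18 lost a call, 2 gained one and 34 changed sign, all 34 for differences that were not called. In both hairpin comparisons Ddit3, Trib3 and Asns, and with RANKL also Atf4, kept their calls under all 14 alternatives. Leaving out 1 library in turn, the members called in NCsh libraries with RANKL numbered 0 to 1, those in the hairpin comparison without RANKL 3 to 6, the 3 without TMBIM6sh no RANKL replicate 2, and with RANKL 4 to 5. Under the replicate block, 6 called members without RANKL became 5, since the adjusted p of Ddit4 was 0.0578. No other call among the members changed under it. Deviations of same-numbered libraries correlated from -0.0651 to 0.0625, so no strong shared shift was seen. That cannot show whether such libraries came from the same animal or culture. The cause of the changes in calls was not tested.

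Sign changes outside of leaving out libraries were those under median-ratio scaling of Atf4 with RANKL in NCsh (-0.051) and of the interactions of Atf5 (0.01), Trib3 (0.025) and Asns (0.025), and with voom that of Chac1 with RANKL in TMBIM6sh (0.0). Leaving out libraries, the RANKL differences in NCsh ranged from -0.057 to 0.111 for Atf4, -0.244 to 0.085 for Ddit3, -0.026 to 0.378 for Ddit4 and -0.085 to 0.074 for Asns. In TMBIM6sh they ranged from -0.125 to 0.002 for Ddit3, -0.006 to 0.174 for Ddit4, -0.141 to 0.141 for Chac1, -0.075 to 0.011 for Asns and -0.063 to 0.138 for Ppp1r15a. The interactions ranged from -0.103 to 0.019 for Atf5, -0.146 to 0.182 for Ddit3, -0.294 to 0.11 for Ddit4, -0.084 to 0.03 for Trib3, -0.114 to 0.169 for Chac1, -0.106 to 0.053 for Asns and -0.067 to 0.173 for Sesn2. A pair of libraries per group and, for Ddit4 and Chac1, low tag counts limit the precision.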
